A study of Mus musculus with 6 samples.

Results

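Fc gamma receptors bind the constant part of immunoglobulin G on coated particles and immune complexes, and the phagocyte NADPH oxidase makes superoxide at the membrane that engulfs them. The genes described here are 4 receptors (Fcgr1, Fcgr2b, Fcgr3 and Fcgr4), the shared signalling chain of the activating receptors (Fcer1g) and 4 oxidase subunits (Cybb, Cyba, Ncf1 and Ncf4). They were chosen by name from the gene symbols of the expression table, and all 9 were found among its 22134 genes. The study sequenced total RNA from mouse adipose tissue in 6 libraries. Of these, 3 were creeping fat, the mesenteric fat that spreads over injured bowel, taken from wild-type (WT) mice after repeated colonic cautery injury, and 3 were mesenteric adipose tissue of uninjured WT mice. Strain, age and sex are not stated in the labels. Nor do these say whether each library is a different mouse, and the p-values therefore reflect library-to-library spread that may be technical.

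Fcgr1, Fcgr3 and Fcgr4 are activating receptors that have little signalling capacity of their own and pair with the Fcer1g chain, whose tyrosine motif (ITAM) recruits the kinase Syk. Fcgr2b is the inhibitory receptor; its single tyrosine motif (ITIM) recruits the phosphatase Inpp5d. Cybb (NOX2, the catalytic subunit) and Cyba form the membrane core of the oxidase, and Ncf1 and Ncf4 are among the cytosolic subunits that join it on activation together with the GTPase Rac2. Macrophages, monocytes and neutrophils carry both systems, and B cells carry Fcgr2b.

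The motifs that set the activating chain apart from the inhibitory receptor are short. The coding stretches are given from the GENCODE mouse transcripts on mm10, both on the minus strand, with tyrosine codons in capitals.
Fcer1g, ITAM, chr1:171229889-171230072, exons 4 and 5: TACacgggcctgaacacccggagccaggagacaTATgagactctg
Fcgr2b, ITIM, chr1:170961071-170961088, exon 8: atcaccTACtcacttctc
The Fcer1g stretch holds 2 tyrosine codons and the Fcgr2b stretch 1. Over their whole coding sequences Fcgr2b and Fcgr3 were the closest pair of the 4 receptors, and the other pairs ran from 59.7% to 65.5% identity. The coding sequences of Fcgr2b and Fcgr3 were identical at 84.5% of 781 aligned bases, against 64.6% for Fcgr2b and Fcgr4 and 61.6% for Fcgr1 and Fcgr2b. The longest run that the coding sequences of Fcgr2b (chr1:170966674-170968081) and Fcgr3 (chr1:171054167-171057792) share is 129 bases across exons 3 and 4 of each, and is shown because reads from it fit both genes.
Fcgr2b and Fcgr3, shared run: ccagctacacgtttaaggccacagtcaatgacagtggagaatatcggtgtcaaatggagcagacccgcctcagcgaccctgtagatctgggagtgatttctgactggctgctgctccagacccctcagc
Of the 50-base windows of the Fcgr3 transcript, 12.79% also occurred in transcripts of another gene, mainly Fcgr2b. For Ncf1 the share was 6.74%, mainly Gtf2ird2, a gene on the opposite strand that shares 408 exon bases with it. The share was 0% for Fcgr1, Fcgr4, Fcer1g, Cybb, Cyba and Ncf4. How the authors counted shared reads is not given in the sources used here, so the division of reads between Fcgr2b and Fcgr3 is uncertain. Gtf2ird2 stood at 1.47 to 3.21 FPKM, far below Ncf1.

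Promoters are shown for the receptors, which all rose. Each line gives the 120 bases before the annotated start (RefSeq, GRCm38.p6). The window searched ran from 250 bases before to 50 after the start, on both strands, for GAGGAA, a purine-rich word of the kind bound by the myeloid factor PU.1. Matches are in capitals, written as they read on the gene's strand (TTCCTC where the word lies on the other strand).
Fcgr1, chr3:96293970-96294089, minus strand: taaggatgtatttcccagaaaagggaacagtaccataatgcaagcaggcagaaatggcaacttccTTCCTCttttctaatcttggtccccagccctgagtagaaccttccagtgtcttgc
Fcgr3, chr1:171059404-171059523, minus strand: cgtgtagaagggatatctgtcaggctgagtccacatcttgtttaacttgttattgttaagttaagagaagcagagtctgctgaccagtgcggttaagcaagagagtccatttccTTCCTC
Fcgr4, chr1:171018806-171018925, plus strand: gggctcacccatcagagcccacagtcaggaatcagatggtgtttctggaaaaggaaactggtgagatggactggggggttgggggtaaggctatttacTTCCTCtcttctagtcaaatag
Fcgr2b, chr1:170976072-170976191, minus strand: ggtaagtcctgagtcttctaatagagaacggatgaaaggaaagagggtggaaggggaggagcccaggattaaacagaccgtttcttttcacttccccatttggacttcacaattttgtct
GAGGAA occurred in 4 of the 8 promoters matched (Fcgr1, Fcgr3, Fcgr4 and Cybb, the last from base 10 to base 15 after the start) and in 28.3% of 27025 promoters. The Fcgr2b, Fcer1g, Cyba and Ncf1 windows did not hold it. Ncf4 was not matched.

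Values are FPKM, fragments scaled by gene length and library total, so levels between genes depend on the lengths used. Ratios of 1 gene's FPKM between libraries do not. The differences of log2(FPKM + 1) given below do depend on them, most for genes of low FPKM. The lengths behind the values were 2799 bases for Fcgr3 and 1598 for Fcgr2b, against 1736 and 5790 annotated exon bases (GENCODE). Library totals recovered from the values were 31186018 to 43415696 reads and overlapped between the groups, and 46 (Fcgr4 in control 1) to 12358 reads (Cybb in creeping fat 3) lay behind each value of the 9 genes. The adipocyte markers Adipoq and Cidec were present in all libraries, at 80.1 to 174.5 and 66.4 to 163.2 FPKM in creeping fat and 451 to 1536 and 478 to 1082 FPKM in controls. Transcripts of other organs also moved with the group: summed seminal vesicle genes (such as Svs5 and Svs4) reached 15960 to 30920 FPKM in creeping fat against 0.179 to 53.5 in controls, and summed exocrine pancreas genes (such as Ctrb1 and Cela2a) 14.7 to 5213 against 16110 to 40130 FPKM. With libraries rescaled to equal sums outside these gland genes, 6 of the 9 genes described here were again called. Control 2 stood apart from the other controls in immune cell genes, and it touched many of the results below.

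All 9 genes had higher mean levels in creeping fat, and 6 of them rose: the 4 receptors, Fcer1g and Cybb. The other 3, Cyba, Ncf1 and Ncf4, did not pass the test. Log2 fold changes (differences of mean log2(FPKM + 1), which understate the change of low genes) ran from 0.76 to 2.14, with a median of 1.83 against 0.02 over all 12812 genes tested. In limma's test at a Benjamini-Hochberg adjusted p under 0.05, 9.35% of all genes tested were called higher, 6.81% lower and 16.2% in either direction, against 6 higher and 0 lower of these 9. The libraries of the groups did not overlap in the same 6 genes, with creeping fat above control, as in 20.2% of all genes tested. The count of 6 fell to 3 without creeping fat 1, 3 without control 3 and 4 without creeping fat 3, and was 9 without control 2. Calls over all 12812 genes moved in the same directions. There 1198 were higher with all libraries, against 576, 626, 639 and 2896 in these fits in the same order. In bulk tissue a higher share of cells of a type and more RNA per cell cannot be told apart.

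**Figure D1:**
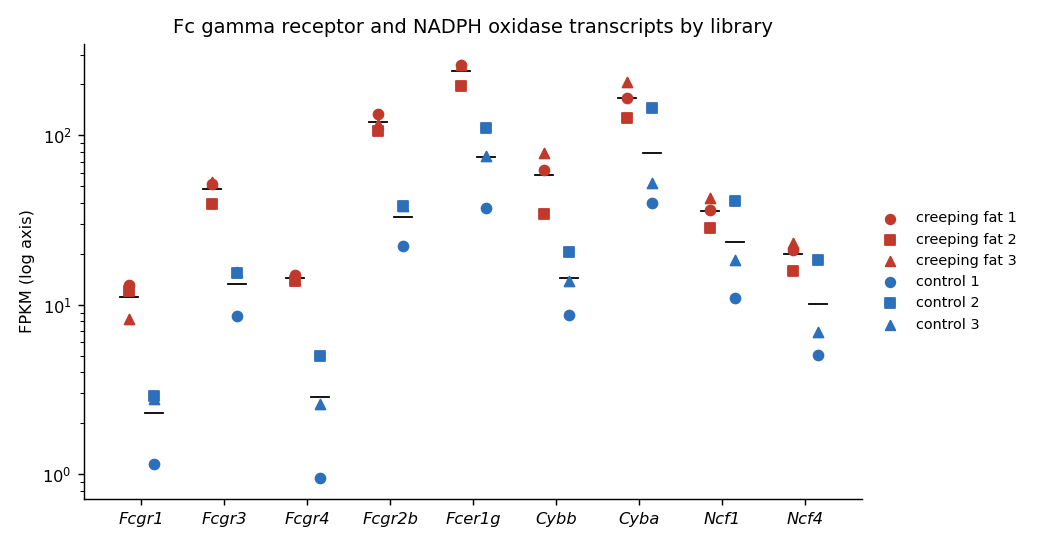
FPKM (log axis) of the 9 genes in each of 3 creeping fat (red) and 3 control (blue) libraries, with symbols for the replicate and black lines for group means. The receptors, Fcer1g and Cybb are separated between the groups, while control 2 lies within the creeping fat range for Cyba, Ncf1 and Ncf4.

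Among the activating receptors Fcgr4, a receptor for IgG2 subclasses found on monocytes, macrophages and neutrophils, had the largest fold change. Its levels were 15.1, 13.9 and 14.1 FPKM in creeping fat 1 to 3 and 0.947, 5.002 and 2.58 FPKM in control 1 to 3. Creeping fat libraries lay close together and all controls well below them, with a 5.28-fold range among the controls themselves. Fcgr4 rose by 2.14 ± 0.38 on the log2 scale (SE; limma adjusted p = 0.0122). Without creeping fat 1 (limma adjusted p = 0.0553) or control 3 (limma adjusted p = 0.0518) it was not called. The log2 fold change stayed near the main value there, at 2.108 and 2.165, with larger SEs of 0.463 and 0.465.

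Fcgr1 encodes the high-affinity receptor CD64, which binds monomeric IgG. It had the lowest mean of the 9 genes in either group, though Fcgr4 was lower in control 1 and 3. It measured 13.01, 12.1 and 8.20 FPKM in creeping fat and 1.153, 2.91 and 2.79 FPKM in controls. All creeping fat libraries stood above all controls. Fcgr1 rose by 1.91 ± 0.28 (limma adjusted p = 0.00721), and was called under all 19 alternative settings. Fcgr3 encodes a low-affinity receptor for immune complexes and was the most abundant activating receptor. It measured 51.9, 39.6 and 53.4 FPKM in creeping fat and 8.64, 15.4 and 15.6 FPKM in controls. The groups were again separate, and Fcgr3 rose by 1.83 ± 0.25 (limma adjusted p = 0.00558).

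Fcgr2b, the inhibitory receptor, had the highest FPKM of the 4 receptors in all 6 libraries. This order depends on gene length: per annotated exon base Fcgr3 exceeded Fcgr2b in every library, with means of 77.9 and 32.9 in creeping fat and 21.3 and 9.12 in controls. The reads need not have been counted over those exon bases, so neither order is established. Fcgr2b measured 134, 107 and 117 FPKM in creeping fat and 22.3, 38.4 and 38.4 FPKM in controls. It held 60.7% to 62.7% of the summed FPKM of the 4 receptors in creeping fat and 62.3% to 67.5% in controls. These shares overlapped through control 2 alone; without it the share was lower in every creeping fat library, also with annotated exon lengths. Fcgr2b rose by 1.86 ± 0.24 (limma adjusted p = 0.00473), and like Fcgr1 and Fcgr3 was called under all 19 alternatives.

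The log2 fold changes of the activating and inhibitory receptors all lay between 1.83 and 2.14 on the log2(FPKM + 1) scale. By voom they spread more widely, at 1.89 for Fcgr2b, 1.91 for Fcgr3, 2.38 for Fcgr1 and 2.68 for Fcgr4. The ratio of Fcgr3 to Fcgr2b was 0.387, 0.371 and 0.457 in creeping fat and 0.388, 0.400 and 0.406 in controls. The 3 activating receptors summed, divided by Fcgr2b, gave 0.596, 0.615 and 0.648 in creeping fat and 0.482, 0.606 and 0.546 in controls. The groups overlapped in the Fcgr3 ratio with and without control 2. In the summed ratio only control 2 overlapped, and without it every creeping fat library was higher, as it was for Fcgr4 over Fcgr2b (0.112 to 0.130 against 0.0425 and 0.0671, with control 2 at 0.130). With annotated exon lengths the mean of Fcgr3 over Fcgr2b was 2.37 in creeping fat and 2.32 in controls, and the groups overlapped likewise. Ratios between the genes were not tested, and with 3 libraries a group an exact permutation test could not go below p = 0.1.

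Fcer1g was the most abundant of the 9 genes in creeping fat. It measured 261.5, 196 and 259 FPKM there and 37.4, 110.5 and 76.0 FPKM in controls, and rose by 1.78 ± 0.38 (limma adjusted p = 0.0231). All creeping fat libraries exceeded all controls, but this call was the least stable of the 6. Its adjusted p was 0.0926, 0.0533 and 0.0863 without creeping fat 1, 2 and 3, 0.0759 without control 3 and 0.0521 after quantile normalization. Relative to the summed activating receptors, Fcer1g stood at 3.27, 2.99 and 3.42 in creeping fat and 3.48, 4.74 and 3.62 in controls. This ratio was lower in every creeping fat library than in any control. In 37% of all genes tested the groups' libraries did not overlap, in either direction.

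The oxidase subunits differed from one another. Cybb measured 62.1, 34.5 and 78.4 FPKM in creeping fat and 8.74, 20.6 and 13.7 FPKM in controls. Creeping fat 2 was the lowest of its group, with a 2.27-fold range among the 3 libraries, yet stood above all controls. Cybb rose by 1.95 ± 0.38 (limma adjusted p = 0.0173). Leaving out creeping fat 1, creeping fat 3 or control 3 ended the call, with adjusted p at 0.0749, 0.0659 and 0.0694.

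Cyba encodes p22phox, the partner that stabilises Cybb in the membrane and also serves other NADPH oxidases. It measured 165, 127 and 206 FPKM in creeping fat and 39.9, 144 and 52.6 FPKM in controls. Control 2 lay above creeping fat 2, and the difference of 1.26 ± 0.47 did not pass (limma adjusted p = 0.12). Ncf1 encodes the organiser subunit p47phox, and measured 36.4, 28.4 and 42.7 FPKM in creeping fat and 11.04, 41.2 and 18.3 FPKM in controls. Control 2 exceeded creeping fat 1 and 2, and the difference was 0.76 ± 0.44 (limma adjusted p = 0.301).

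Ncf4 encodes p40phox, which binds a membrane phosphoinositide on phagosomes. It measured 21.02, 15.8 and 23.0 FPKM in creeping fat and 5.07, 18.3 and 6.95 FPKM in controls, with control 2 above creeping fat 2. Its difference was 1.09 ± 0.42 (limma adjusted p = 0.132). Without control 2, Cyba (1.81, adjusted p = 0.00192), Ncf1 (1.25, adjusted p = 0.00899) and Ncf4 (1.58, adjusted p = 0.00177) passed and all 9 genes were called higher, as were 22.6% of all genes tested. With creeping fat 2 left out as well, all 9 were again called higher, beside 21.2% of all genes. Beside this, summed B cell markers stood at 326.4 FPKM in control 2 against 84.8 and 106.6 in control 1 and 3 and 39.1 to 171.2 in creeping fat. Summed dendritic cell markers stood at 49.8 FPKM in control 2 against 11.7 and 19.1 in control 1 and 3 and 11.2 to 17.2 in creeping fat. Much of that sum in control 2 was Clec9a (24.4 FPKM). Control 2 was also above control 1 and 3 in NK cell markers (40.3 FPKM against 7.83 and 9.30) and plasma cell markers (364.3 against 38.8 and 69.15). The same held for general leukocyte markers (607.8 FPKM against 169 and 254.5). Its summed adipocyte markers were the lowest of the controls (1387 FPKM against 3431 and 3464). The part of any of these cells in the subunit values was not tested.

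**Figure D2:**
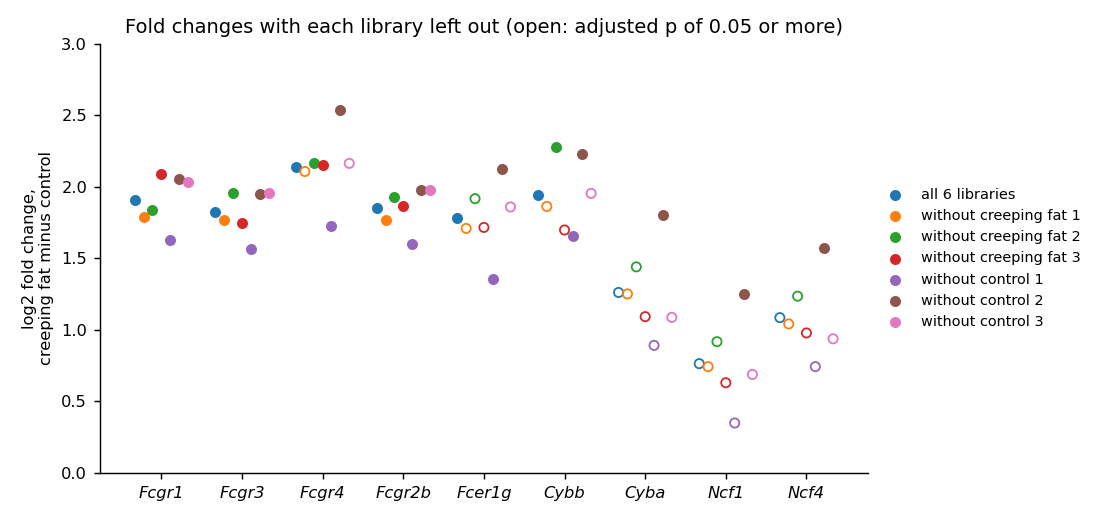
Log2 fold change (creeping fat minus control) of the 9 genes with all 6 libraries and with each library left out; filled points passed an adjusted p of 0.05 and open points did not. Fcgr1, Fcgr2b and Fcgr3 are filled throughout, and Cyba, Ncf1 and Ncf4 are filled only without control 2.

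The proportions of the subunit transcripts differed between the groups in every library. Cybb over Cyba was 0.376, 0.272 and 0.380 in creeping fat and 0.219, 0.143 and 0.261 in controls. Ncf1 over Cybb was 0.586, 0.822 and 0.545 in creeping fat and 1.26, 2.00 and 1.33 in controls. Thus Cybb exceeded Ncf1 in all 3 creeping fat libraries and lay below it in all 3 controls. Ncf4 over Cybb was 0.338, 0.458 and 0.294 against 0.580, 0.886 and 0.506. The cytosolic subunits also differed from each other, with Ncf4 over Ncf1 at 0.578, 0.557 and 0.539 in creeping fat and 0.460, 0.443 and 0.380 in controls. Library scaling cancels in these ratios, and they were separate between the groups with and without control 2.

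**Figure D3:**
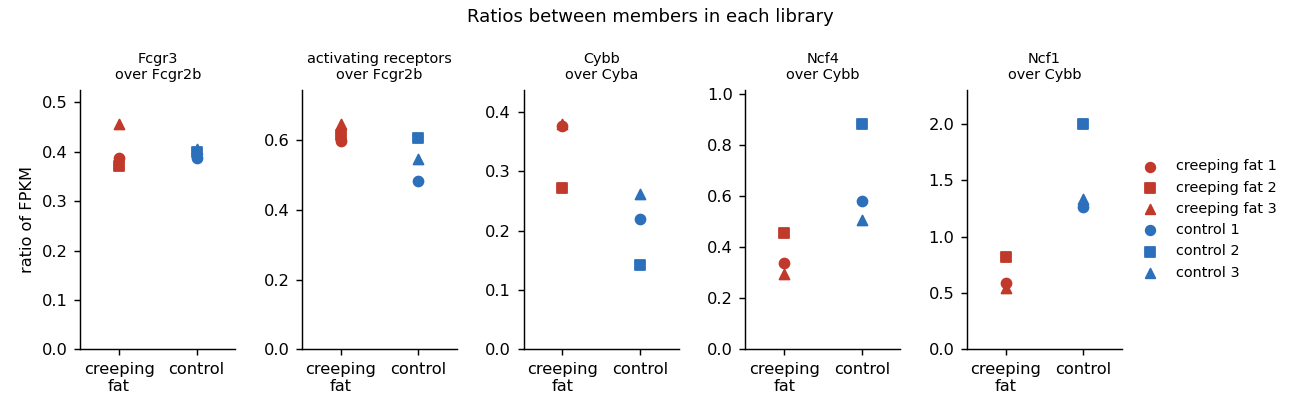
Ratios of FPKM between genes in each creeping fat (red) and control (blue) library. Fcgr3 over Fcgr2b overlaps between the groups, the summed activating receptors over Fcgr2b overlap through control 2 alone, and Cybb over Cyba is higher and Ncf4 and Ncf1 over Cybb are lower in all 3 creeping fat libraries.

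In creeping fat the order of mean levels was Fcer1g (239 ± 37.2 FPKM, SD, n = 3), Cyba (166 ± 39.6), Fcgr2b (119 ± 13.96), Cybb (58.3 ± 22.2), Fcgr3 (48.3 ± 7.58), Ncf1 (35.8 ± 7.19), Ncf4 (19.9 ± 3.72), Fcgr4 (14.3 ± 0.657) and Fcgr1 (11.1 ± 2.56). Cybb and Fcgr3 differed by less than the SD of Cybb. In controls the order was Cyba (79.0 ± 57.0 FPKM), Fcer1g (74.6 ± 36.5), Fcgr2b (33.1 ± 9.32), Ncf1 (23.5 ± 15.8), Cybb (14.4 ± 5.96), Fcgr3 (13.2 ± 3.96), Ncf4 (10.1 ± 7.13), Fcgr4 (2.84 ± 2.04) and Fcgr1 (2.29 ± 0.983). There Cyba and Fcer1g, neighbours in the run from Fcgr2b to Ncf4, and Fcgr4 and Fcgr1 differed by less than the larger SD of each pair. Per annotated exon base Fcgr2b stood at place 5 in creeping fat and 6 in controls and Fcgr3 at place 3 in both. Within the groups the 9 genes mostly had the same order of libraries. Control 1 was the lowest control for all 9 genes, control 2 the highest for 8, and creeping fat 2 the lowest creeping fat library for 8. The share of all genes tested with such an order was not counted, here or for the lists below. This order may therefore belong to the libraries rather than to these genes.

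Of the cells that carry these genes, macrophages and monocytes had summed markers that were higher in every creeping fat library. Summed neutrophil and B cell markers overlapped between the groups. Of 6 B cell markers 0 were called, and 0 had a positive log2 fold change (median -0.89). Of 14 macrophage markers 9 rose (median log2 fold change 1.65), among them Lyz2 (2.20 ± 0.33, limma adjusted p = 0.00758) and C1qb (1.71 ± 0.39, limma adjusted p = 0.029), and none was at 0. The count was 3 without creeping fat 1, 3 without creeping fat 3, 4 without control 3 and 12, with 1 lower, without control 2. The marker that went the other way was Cd163, a scavenger receptor of resident macrophages, named after its values were seen. It measured 5.02, 13.6 and 10.4 FPKM in creeping fat and 20.4, 12.6 and 28.2 in controls (-1.03 ± 0.40, limma adjusted p = 0.131; -1.32 and adjusted p = 0.0298 without control 2). The summed level of the 14 was 5824, 3929 and 6355 FPKM in creeping fat and 911, 2006 and 1496 FPKM in controls. Of 4 monocyte markers 2 rose, Ly6c2 included, and Plac8 did not pass; 0 passed without creeping fat 1 or without creeping fat 3. Their sum was 59.3 to 75.3 FPKM in creeping fat and 12.2 to 33.6 FPKM in controls. Of 8 tested neutrophil markers S100a8 rose (2.10 ± 0.49, limma adjusted p = 0.0309) and Elane fell by 0.96 ± 0.17 (limma adjusted p = 0.0122; named after its values were seen), and S100a9 did not pass. Elane was under 1 FPKM in every creeping fat library and passed the filter only through the controls. Without creeping fat 1 or without control 3 no neutrophil marker passed in either direction, and without control 2 there were 4 higher and 1 lower. The neutrophil sum was 153.3, 86.9 and 59.7 FPKM in creeping fat and 14.9, 64.5 and 23.6 in controls. It overlapped through control 2 alone, and without it every creeping fat library was higher.

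Relative to the 14 macrophage markers summed, the receptors, Fcer1g and Cybb no longer separated the groups, and 3 oxidase subunits did so in the opposite direction. Per 1000 FPKM of those markers Cybb stood at 10.7, 8.78 and 12.3 FPKM in creeping fat and 9.60, 10.3 and 9.19 in controls, and Fcgr3 at 8.91, 10.1 and 8.40 against 9.49, 7.66 and 10.4. Fcgr4 overlapped through control 2 alone (2.22 to 3.53 in creeping fat against 1.04, 2.49 and 1.73 in control 1 to 3). Ncf1 stood at 6.25, 7.22 and 6.72 against 12.1, 20.6 and 12.2. Cyba (28.4 to 32.4 against 35.2 to 71.9) and Ncf4 (3.61 to 4.02 against 4.65 to 9.10) were likewise lower in every creeping fat library. Lyz2 alone makes up much of the marker sum. Without it Ncf1 (15.4 to 16.8 against 24.9 to 33.3) and Ncf4 (8.57 to 9.05 against 9.89 to 14.7) stayed separate, Cyba overlapped, and Fcgr4 was higher in every creeping fat library (5.54 to 7.51 against 2.14 to 4.04). Shares of macrophages in the tissue were not measured, and the part of cell composition in the fold changes was not tested.

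**Figure D4:**
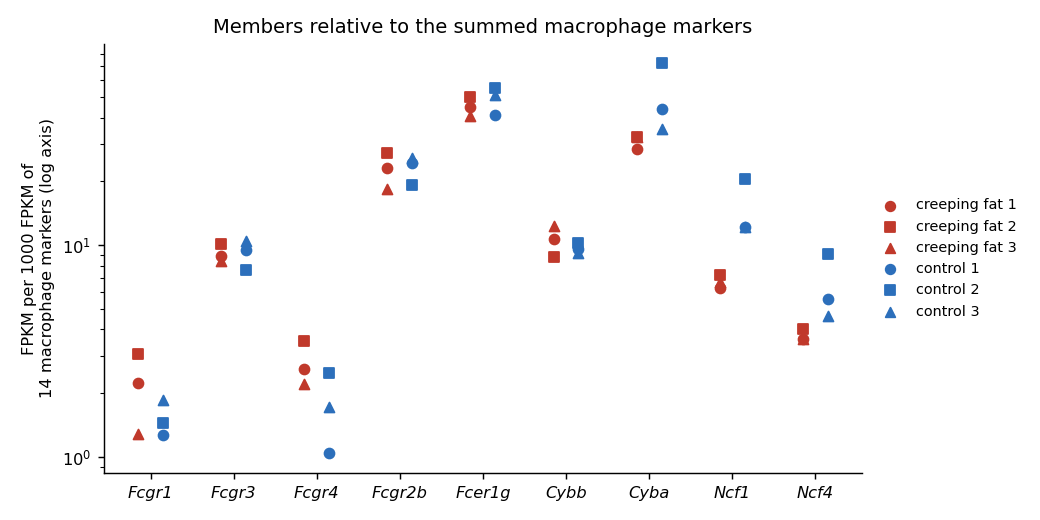
FPKM of each gene per 1000 FPKM of 14 summed macrophage markers (log axis) in each creeping fat (red) and control (blue) library. The receptors, Fcer1g and Cybb overlap between the groups, Fcgr4 through control 2 alone, and Cyba, Ncf1 and Ncf4 are lower in all 3 creeping fat libraries.

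The listed partners of the oxidase, which include regulators as well as parts of it, did not pass the test. None of 8 tested partners was called by limma (1 at an unadjusted p under 0.05), and 0 by voom, and their median log2 fold change was 0.29. Rac1 and Rac2, the GTPases that switch the oxidase on, differed by 0.27 ± 0.16 (limma adjusted p = 0.32) and 0.31 ± 0.45 (limma adjusted p = 0.707), and Rac2 stood at -0.06 without control 1. Control 2 was the highest control for 7 of the 8 partners. Without it 4 of them were called higher, where 22.6% of all genes tested were. Of the other NADPH oxidase genes 3 of 9 passed the filter on low values. Nox4, an oxidase of fibroblasts and vessel walls that needs Cyba but no cytosolic subunit, measured 5.90, 2.98 and 3.15 FPKM in creeping fat and 1.17, 1.44 and 0.914 in controls. It rose by 1.16 ± 0.25 (limma adjusted p = 0.0219), but its call was lost when creeping fat 1 or 3 or control 1 or 3 was left out (adjusted p from 0.0531 to 0.0907). Noxo1, an organiser of the epithelial oxidase, differed by 0.40 ± 0.25 (limma adjusted p = 0.328).

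The result for signalling genes downstream of the receptors turned on control 2. Of 20 genes of activating signalling, 0 rose by limma and 0 by voom, 1 fell, and 2 had an unadjusted p under 0.05 in either direction (median 0.38). That gene was Pik3cb, a phosphoinositide 3-kinase subunit, which measured 5.96, 5.72 and 6.59 FPKM in creeping fat and 23.5, 12.6 and 22.0 in controls and fell by 1.48 ± 0.24 (limma adjusted p = 0.00948). Syk, the kinase recruited by the Fcer1g motif, measured 27.8, 17.1 and 29.9 FPKM in creeping fat and 9.32, 60.1 and 17.6 in controls (0.15 ± 0.62, limma adjusted p = 0.906), and its difference turned to -0.42 without control 1. When creeping fat 2 was removed together with control 2, Syk (1.11, limma adjusted p = 0.0162) and Rac2 (1.01, limma adjusted p = 0.0108) were called higher. Grb2, an adaptor, differed by 0.38 ± 0.24 (limma adjusted p = 0.337). Of 10 genes of inhibitory signalling 0 were called by limma and 0 by voom (2 at an unadjusted p under 0.05; median 0.22), among them the phosphatase gene Ptpn11 (-0.39 ± 0.19) and the kinase gene Csk (0.01 ± 0.37). Control 2 was the highest control for 18 of the 20 activating and 8 of the 10 inhibitory genes. Without it 14 activating genes were called higher and 1 lower, and 4 inhibitory genes higher and 1 lower, where 22.6% of all genes tested were called higher.

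Of 11 tested other receptors that use Fcer1g or the related adaptor Tyrobp, 9 rose and 0 fell (median 1.79), and 7 more lay under the filter. Of all genes tested 9.35% were called higher. Clec4e, Clec5a and Sirpb1c, named after their values were seen, count among the 9. They were under 1 FPKM in every control and passed the filter only through creeping fat. With no filter on low values 7 of 18 receptors were called higher and 0 lower (median 1.36). Over all genes 1102 were then called higher, against 1198 with the filter. The count of 9 was 6 without creeping fat 1 and 6 without control 3. Clec4d, a C-type lectin that signals through Fcer1g, had the largest change: 42.5, 21.4 and 33.6 FPKM in creeping fat against 1.52, 2.21 and 1.29 in controls (3.61 ± 0.27, limma adjusted p = 0.000863). Trem2, a lipid-sensing receptor that uses Tyrobp and is also among the macrophage markers, rose by 3.36 ± 0.21 (limma adjusted p = 0.000464). Clec4n, the fungal mannan receptor Dectin-2, measured 57.3, 22.0 and 37.2 FPKM against 1.07, 10.97 and 4.74 and rose by 2.83 ± 0.64 (limma adjusted p = 0.0281), though not with no filter on low values (adjusted p = 0.0568), nor without creeping fat 1 (adjusted p = 0.107), creeping fat 3 (adjusted p = 0.0931) or control 3 (adjusted p = 0.0917). Tyrobp was the gene whose pattern was nearest to that of Fcer1g, and their ratio, Fcer1g over Tyrobp, was 0.654 to 0.687 in creeping fat and 0.689 to 0.755 in controls.

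**Figure D5:**
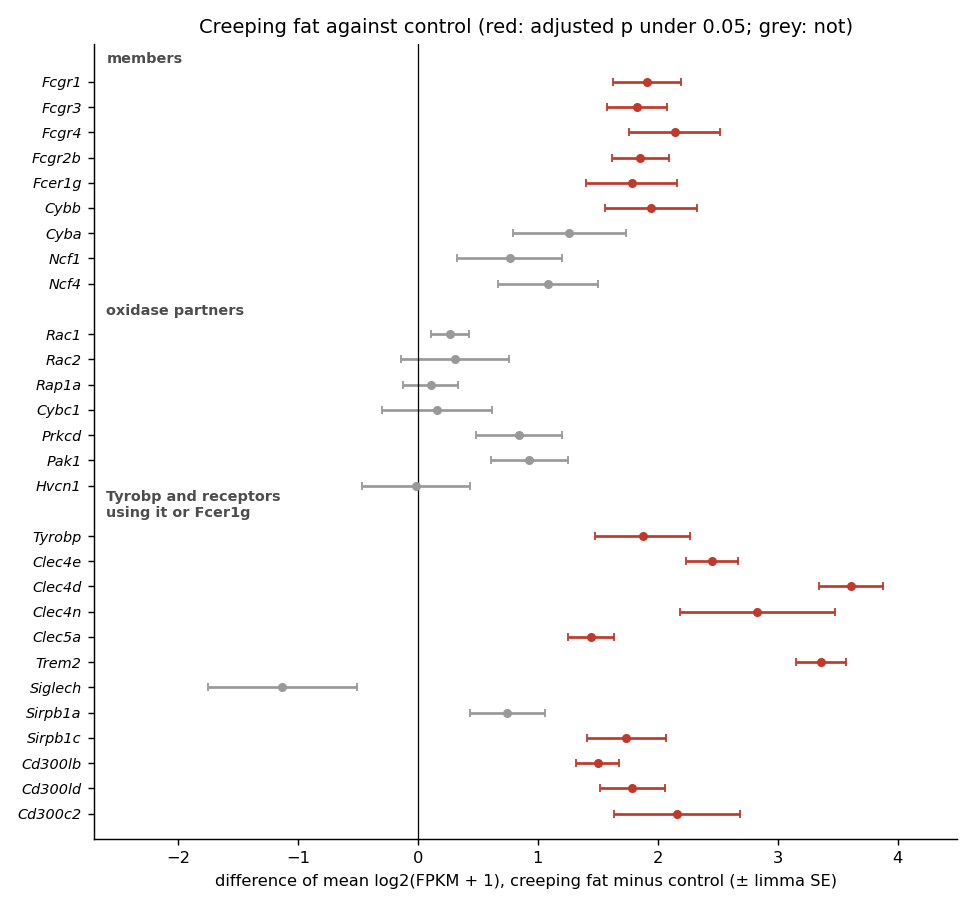
Log2 fold change on the log2(FPKM + 1) scale, with creeping fat above control to the right, and limma's SE for the 9 genes, oxidase partners, Tyrobp and tested receptors that use Fcer1g or Tyrobp; red points passed an adjusted p of 0.05. No oxidase partner shown is red, while Tyrobp and 9 of 11 receptors that use it or Fcer1g are.

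Of 10 tested Fc receptors of other kinds 2 rose (median -0.17). Fcrls, a receptor-like gene of resident macrophages, measured 28.4, 29.8 and 24.0 FPKM in creeping fat and 7.75, 4.78 and 14.5 in controls (1.62 ± 0.34, limma adjusted p = 0.0222), and did not pass without creeping fat 1, 2 or 3 or control 1 (adjusted p from 0.0663 to 0.0864). Fcrlb rose by 0.87 ± 0.18 (limma adjusted p = 0.0221) at levels of 1.14 to 1.26 FPKM against 0 to 0.435, near the filter, which it passed only through creeping fat. It did not pass when any library but control 2 was left out (adjusted p from 0.055 to 0.0863), nor with a pseudocount of 0.1 (adjusted p = 0.0602), nor by voom (adjusted p = 0.0792). Of the immunoglobulin constant gene list only Jchain, the joining chain of IgA and IgM, was matched; the others were not analysed here. Jchain measured 250.1, 176 and 424.5 FPKM in creeping fat and 24.5, 281 and 55.0 in controls (1.85 ± 0.84, limma adjusted p = 0.193).

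Among 9 tested transcription factors of myeloid cells Runx1 rose (28.4, 28.4 and 17.6 FPKM against 2.97, 10.7 and 4.998; 1.95 ± 0.40, limma adjusted p = 0.0202). It did not pass without creeping fat 1 or 2 or control 3 (adjusted p from 0.071 to 0.084). Cebpa, which acts in both myeloid cells and adipocytes, fell by 1.69 ± 0.28 (limma adjusted p = 0.00991). Spi1, the gene of PU.1, was chosen for naming after its values were seen. It measured 42.8, 38.2 and 44.9 FPKM in creeping fat and 8.47, 36.0 and 13.4 in controls (1.32 ± 0.46, limma adjusted p = 0.103).

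The genes most like a member were sought over the 6 libraries by the Euclidean distance between log2(FPKM + 1) values centred on each gene's mean. For Fcer1g they were Tyrobp (distance 0.159), the macrophage markers Adgre1 (0.172), C1qb (0.271) and Cd68 (0.379), and Lilrb4a (0.413). For Cybb they were Cd68 (0.431), Lilrb4a (0.455), Tnfaip2 (0.532), Lyz2 (0.574) and Clec7a (0.579). For Fcgr2b they were Fcgr3 (0.223), with which it shares sequence, Cd300ld (0.237), the thrombin receptor gene F2r (0.278), the C5a receptor gene C5ar1 (0.293) and the integrin gene Itgam (0.322). Among the 9 genes themselves Cyba and Ncf4 were nearest to each other (0.296), and the nearest to Ncf1 was Ncf4 (0.45).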

How the data were processed

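The authors deposited 1 table of FPKM values for 22134 gene symbols in 6 libraries, all 6 columns of which were matched to sample titles. The submitters' processing notes name mm10. Per the labels' protocols, RNA of integrity number 7 or above was depleted of ribosomal RNA and made into stranded libraries. The aligner, counting program, annotation and strand setting are not given in the sources used here.

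Low FPKM values were whole multiples of 1 read, and solving for gene length and library total gave whole reads (tolerance 0.002) for 18713 of 18714 genes above 0; in a test on simulated data all counts came back for 254 of 256 genes with at least 50 reads. Reads cover counting error only; 3 reads in a gene of 1 kilobase correspond to 0.0691 to 0.0962 FPKM. The 12812 genes reaching 1 FPKM in 3 or more libraries were tested on log2(FPKM + 1) with limma 3.58.1 (R 4.3.3; group as the only term, eBayes with trend, two-sided, Benjamini-Hochberg adjustment over all of them). All 9 genes passed the filter. On simulated data 182 of 195 changed genes were called, and 4 of the rest. The simulation gave all genes the same dispersion and held no outlying library, so these rates need not hold for the real libraries. The 9 genes, the lists and the rule for named genes (called list members with the largest changes and no overlap, otherwise the most abundant 2; the 5 most similar genes) were chosen with earlier results of these data known. No test over a list was made. Some genes that count in the lists are not reported here by name or plotted. Lists were 8 of the pathway and 14 of cell markers. Of the marker lists, the tested genes called were, higher and lower: B cell 0 and 0 of 6, plasma cell 0 and 0 of 4, NK cell 0 and 0 of 3, mast cell 1 and 0 of 6, dendritic cell 0 and 0 of 4, eosinophil 0 and 0 of 1, leukocyte 1 and 0 of 5, endothelium 0 and 1 of 6, adipocyte 0 and 6 of 6, seminal vesicle 8 and 0 of 8, exocrine pancreas 0 and 12 of 17; the macrophage, monocyte and neutrophil lists stand with the results. Alternatives were 2 pseudocounts, 2 filters, 3 scalings, a replicate block, limma without trend and with array weights, each library left out, and creeping fat 2 with control 2 left out; voom on recovered reads, median centring and, for levels and ratios, annotated exon lengths were added after the data were seen.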

Additional observations from a re-analysis of the deposited data

How the results depend on the processing

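Over 19 alternatives the log2 fold change of each of the 9 genes stayed positive. Fcgr1, Fcgr2b and Fcgr3 were called in all 19, Fcgr4 in 17, Cybb in 15, Fcer1g in 13, and Cyba, Ncf1 and Ncf4 in 3 (array weights, without control 2, and without creeping fat 2 and control 2). With 1 library left out, 3 to 9 of the 9 genes were called higher (6 with all; 3 without creeping fat 1 and 3 without control 3), 6 to 40 genes of the 8 pathway lists (14 with all), and 576 to 2896 higher and 287 to 1857 lower over all genes (1198 and 872 with all). Array weights gave 3128 and 2392 over all genes and 39 and 4 in the lists (14 and 2 in the main result), and leaving out creeping fat 2 with control 2 gave 2713, 1731 and 46. A filter at a mean of 5 FPKM left 9 list genes called higher, with fewer genes tested. Where not stated, the cause was not tested. Deviations of same-numbered libraries from their group means correlated weakly (r across genes -0.181, -0.18 and -0.081). With 3 libraries a group these values cannot show whether the numbers pair the samples. With a replicate block 636 genes were higher and 378 lower, with 8 list genes higher. Of the 9 genes 4 were called, Cybb (limma adjusted p = 0.0564) and Fcer1g (limma adjusted p = 0.0594) not among them. Differences that did not pass also changed sign: Rac2 (-0.05549 to 0.795) and Syk (-0.42 to 0.86) with 1 library left out, the lowest without control 1. So did Csk after quantile normalization (-0.07683), after median centring (-0.01967) and with 1 library left out (-0.25 to 0.45). Each group had 3 libraries, which limits the precision, and the fewest reads behind a value of the 9 genes were 46.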
